A study of Mus musculus with 10 samples.

Results

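The genes of 4 axes of the tumour necrosis factor (TNF) superfamily were followed in the spleen of arthritic mice with and without the phosphatase DUSP6. The members were the 10 genes Tnf, Tnfrsf1a and Tnfrsf1b (TNF axis), Lta, Ltb and Ltbr (lymphotoxin axis), Tnfsf11 and Tnfrsf11a (RANK axis), and Tnfsf13b and Tnfrsf13c (BAFF axis), chosen by name from the 54532 genes of the expression table. All 10 had reads in every library and passed the filter of 0.1 FPKM on average (fragments per kilobase of gene, scaled to the depth of the library) that 21296 genes passed. RNA was sequenced from 5 DUSP6 KO and 5 WT spleens, 1 library per mouse. DUSP6 KO mice carried the germline allele Dusp6tm1Jmol, which the sample labels call a knockdown and the study a knockout. WT mice were C57BL/6J, and all mice were bought from the Jackson Laboratories and 8 to 12 weeks old per the methods. The methods state neither the background strain of the DUSP6 KO line nor that the groups were littermates. Differences of strain or colony therefore cannot be told apart from the deletion. Both groups received 100 µL of pooled serum from arthritic KRN x NOD F1 offspring by intraperitoneal injection on days 0 and 2, and spleens were taken on day 9, at the peak of KRN serum-induced arthritis (KSIA). No spleen without serum was compared, so the values describe DUSP6 KO against WT in arthritis and not the response to arthritis. The deletion was in every cell of the mouse, and whole spleens were measured.

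Ligands of this superfamily are made as trimers on the cell surface or are shed from it, and they act through trimeric receptors that recruit TRAF adaptors and lead to NF-κB and MAP kinase signalling or to cell death. TNF binds the receptors TNFR1 (Tnfrsf1a) and TNFR2 (Tnfrsf1b), and it is a target of therapy in rheumatoid arthritis. In the spleen, lymphotoxin made mainly by B cells acts on the lymphotoxin β receptor of stromal cells and maintains the white pulp and marginal zone. RANKL (Tnfsf11) acts on RANK (Tnfrsf11a) to drive osteoclasts, the cells that erode bone, and BAFF (Tnfsf13b) keeps mature B cells alive through its receptor BAFF-R (Tnfrsf13c).

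Of the members, 3 ligand genes are neighbours. On GRCm38, Ltb lies at chr17:35194439-35196320 on the plus strand, Tnf at chr17:35199381-35202007 on the minus strand and Lta at chr17:35203165-35205351 on the minus strand. The gap between Ltb and Tnf is 3.06 kb, the gap between Tnf and Lta is 1.16 kb, and all of them lie within 10.9 kb. Their promoters are shown because these neighbours had widely different RNA levels, given below. Each promoter runs 5′ to 3′ on the strand of its gene from 250 bases before to 50 bases after the RefSeq start (build GRCm38.p6), at chr17:35194257-35194556 for Ltb, chr17:35201958-35202257 for Tnf and chr17:35205302-35205601 for Lta. Capitals mark a match to the consensus site of NF-κB (the κB site) in Ltb and to TATAAA in Tnf and Lta.
Ltb: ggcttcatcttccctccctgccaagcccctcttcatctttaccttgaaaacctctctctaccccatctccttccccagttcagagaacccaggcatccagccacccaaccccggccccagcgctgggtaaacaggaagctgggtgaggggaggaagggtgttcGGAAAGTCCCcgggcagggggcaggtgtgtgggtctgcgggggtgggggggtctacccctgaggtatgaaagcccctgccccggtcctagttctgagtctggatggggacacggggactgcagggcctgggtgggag
Tnf: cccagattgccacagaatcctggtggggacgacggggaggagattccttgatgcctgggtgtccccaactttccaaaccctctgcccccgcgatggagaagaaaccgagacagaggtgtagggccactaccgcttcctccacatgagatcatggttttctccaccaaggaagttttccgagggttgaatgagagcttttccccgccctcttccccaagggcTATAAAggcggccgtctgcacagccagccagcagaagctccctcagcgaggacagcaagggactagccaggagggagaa
Lta: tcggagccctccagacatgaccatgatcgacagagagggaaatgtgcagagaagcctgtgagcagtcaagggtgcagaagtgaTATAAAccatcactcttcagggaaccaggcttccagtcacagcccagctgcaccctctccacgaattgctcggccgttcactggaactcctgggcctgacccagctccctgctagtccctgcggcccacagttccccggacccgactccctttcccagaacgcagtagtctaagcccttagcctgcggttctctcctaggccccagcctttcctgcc

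The κB consensus was searched on both strands and matched 78 to 87 bases before the start of Ltb, read on the opposite strand. TATAAA matched 24 to 29 bases before the start of Tnf, and 162 to 167 bases before the start of Lta. Over all 32851 RefSeq mouse promoters of the same length, 8.46% held the κB consensus and 13.6% held TATAAA on either strand. TGANTCA, the AP-1 motif, was in 7.81% of them. Among the members, which all had a RefSeq promoter, 1 held the κB consensus (Ltb), 1 held AP-1 (Tnfsf13b) and 3 held TATAAA (Tnf, Lta and Tnfsf11). The absence of these letters from the other windows says only that they are not in these 300 bases.

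Before the members, Dusp6 checked the labels. It was at 0.428, 0.624, 0.458, 0.383 and 0.308 FPKM in DUSP6 KO spleens 26, 21, 73, 01 and 03, and at 19.4, 24.0, 19.4, 16.6 and 17.7 FPKM in WT spleens 65, 67, 73, 77 and 83. Below, per-spleen values keep these orders. Libraries held 14990474 to 19822673 reads assigned to genes, and replicates of a group differed by more than sampling noise (chi-square per gene of 14.7 to 169 over 20 pairs). WT spleens 67 and 65 held pancreatic enzyme transcripts (summed FPKM of 10 genes of 12002 and 162, against 9.55 to 26.2 in the other 8), so results were also computed without both. Differences are on the log2(FPKM + 0.1) scale, DUSP6 KO minus WT, tested with limma across the 21296 genes with Benjamini-Hochberg (BH) adjustment, and this scale understates changes of low genes.

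No member passed the test between DUSP6 KO and WT spleens. At an unadjusted p under 0.05, 0 of 10 were called, where 5.66% of all genes tested were (2.62% higher and 3.03% lower in DUSP6 KO). At an adjusted p of 0.05 or less, again 0 of 10 were called, where 0.0704% of all genes were. The ranges of the groups overlapped for every member, whereas they did not for 1.11% of all genes. By sign, 9 of 10 members were lower in DUSP6 KO, and Ltbr was higher, but the sign of 4 of them (Tnf, Tnfrsf1a, Tnfrsf1b and Lta) turned when a single library was left out. Of all genes, 51.0% were lower by sign, with a median of -0.0046 on the log2 scale. The signs are not independent, because part of the members varied together from spleen to spleen as described below.

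**Figure D1:**
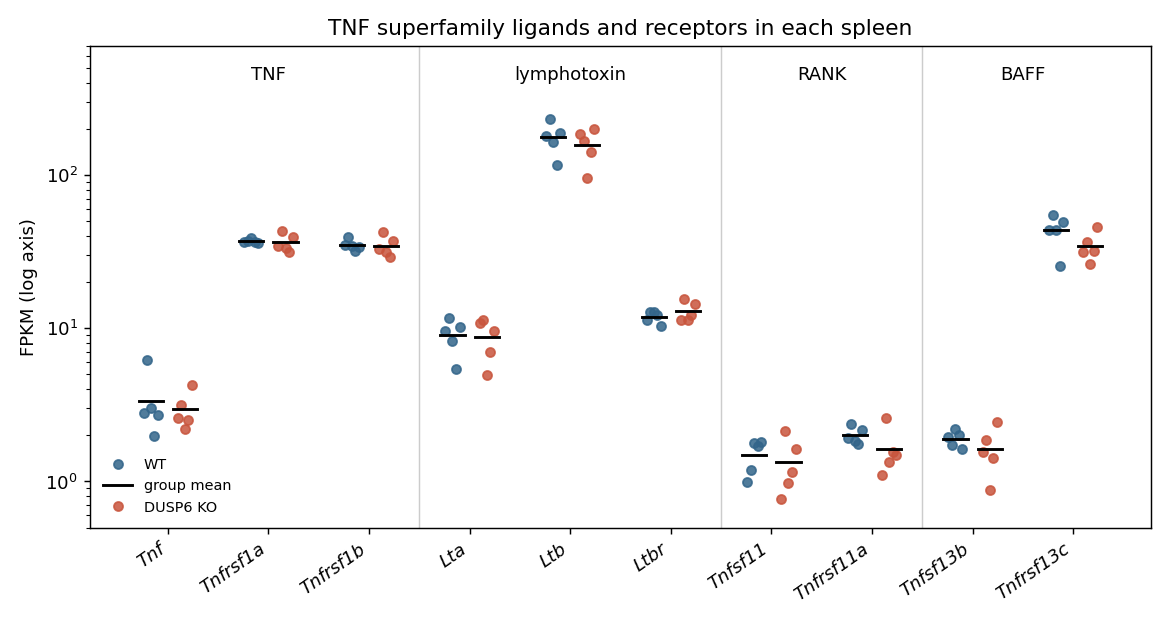
FPKM of each of the 10 members (x axis, grouped by axis) in each spleen on a log axis, with 5 WT (blue) and 5 DUSP6 KO (red) points and the group mean as a bar. The groups overlap for every member, and levels run from 0.767 FPKM for Tnfsf11 in a DUSP6 KO spleen to 232 FPKM for Ltb in a WT spleen.

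In the TNF axis, the receptors were abundant and the ligand was not. Tnf, the ligand, was at 2.62, 3.14, 2.21, 2.53 and 4.27 FPKM in DUSP6 KO and at 2.82, 6.23, 3.04, 1.98 and 2.72 FPKM in WT spleens. WT spleen 67 stood above all the others, while WT spleen 77 was the lowest of all 10 and the other 3 lay within the DUSP6 KO range. The means were 2.95 ± 0.807 (SD, n = 5) and 3.36 ± 1.65 FPKM (n = 5), a log2 difference of -0.11 (limma SE 0.28, 95% interval -0.73 to 0.51, BH-adjusted p = 0.99). Without WT spleen 67 the difference was 0.14 (unadjusted p = 0.52), so the sign of the Tnf difference rested on that spleen. This interval leaves room for a level in DUSP6 KO from 0.604 to 1.42 times that of WT.

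Tnfrsf1a, which encodes the death domain receptor TNFR1, was at 34.3, 43.4, 33.5, 31.6 and 39.5 FPKM in DUSP6 KO and at 36.6, 37.5, 38.8, 36.5 and 36.2 FPKM in WT spleens. The WT values lay inside the DUSP6 KO range, and the DUSP6 KO spleens were more spread, with a coefficient of variation of 13.3% against 2.87%. Limma gave a log2 difference of -0.04 (SE 0.089, 95% interval -0.23 to 0.16, BH-adjusted p = 0.99). Tnfrsf1b, which encodes TNFR2, was at 32.9, 42.5, 31.7, 29.1 and 37.1 FPKM in DUSP6 KO and at 35.1, 39.7, 34.3, 32.0 and 34.0 FPKM in WT spleens, again with the WT range inside that of DUSP6 KO. Its log2 difference was -0.02 (SE 0.11, 95% interval -0.26 to 0.21, limma unadjusted p = 0.82). Both receptors were highest in DUSP6 KO spleen 21 and lowest in DUSP6 KO spleen 01. Without that spleen the differences were 0.013 for Tnfrsf1a and 0.036 for Tnfrsf1b, and that of Tnfrsf1b was also above 0 without DUSP6 KO spleen 73 (0.0048) or WT spleen 67 (0.022). Per length, TNFR1 RNA was 12.7 ± 3.29 times and TNFR2 RNA 11.9 ± 2.77 times that of Tnf (SD over 10 spleens), and the ratio of TNFR1 to TNFR2 RNA was 1.05 ± 0.0252 in DUSP6 KO and 1.06 ± 0.0788 in WT.

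The lymphotoxin axis held the most abundant member. Ltb encodes lymphotoxin β, which anchors the lymphotoxin heterotrimer to the membrane, and only 1.12% of the genes tested had a higher mean FPKM. It was at 186, 167, 96.7, 142 and 200 FPKM in DUSP6 KO (158 ± 40.7, SD, n = 5) and at 181, 232, 166, 116 and 189 FPKM in WT spleens (177 ± 41.7, n = 5). DUSP6 KO spleen 73 and WT spleen 77 were the lowest of their groups. For Ltb the log2 difference was -0.17 (SE 0.22, 95% interval -0.66 to 0.32, limma BH-adjusted p = 0.99), and it was -0.0030 without DUSP6 KO spleen 73 and -0.31 without WT spleen 77. Reads of Ltb numbered 2147 to 6707 per library, for which counting alone gives a coefficient of variation of 1.45% to 1.51%, against 23.6% and 25.7% observed. The microRNA gene Mir6973a lies in an intron of Ltb on the same strand, and its listed mean of 11.1 FPKM may share reads with Ltb.

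Lta encodes lymphotoxin α, which is secreted as a homotrimer or joins lymphotoxin β. It was at 10.8, 11.3, 4.93, 7.01 and 9.68 FPKM in DUSP6 KO and at 9.68, 11.7, 8.26, 5.44 and 10.2 FPKM in WT spleens, lowest in the same spleens as Ltb (DUSP6 KO 73 and WT 77). The log2 difference was -0.07 (SE 0.26, 95% interval -0.64 to 0.50, limma BH-adjusted p = 0.99), and it was 0.12 without DUSP6 KO spleen 73 and 0.03 without WT spleen 67. The receptor gene Ltbr was at 11.4, 15.5, 11.3, 12.3 and 14.4 FPKM in DUSP6 KO and at 11.3, 12.8, 12.9, 12.2 and 10.4 FPKM in WT spleens. DUSP6 KO spleens 21 and 03 lay above every WT spleen, and the other 3 lay within the WT range. Ltbr was the single member with a higher mean in DUSP6 KO, by 0.12 on the log2 scale (SE 0.11, 95% interval -0.12 to 0.36, limma unadjusted p = 0.30, BH-adjusted p = 0.98).

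The 3 neighbouring ligand genes kept their order in all 10 spleens. Per length, Ltb was 19.1 ± 1.93 times Lta (SD over 10 spleens, 14.8 to 21.4), and Lta was 2.95 ± 0.740 times Tnf (1.87 to 4.12). The ratio of Ltb to Lta was 18.5 ± 2.46 in DUSP6 KO and 19.7 ± 1.18 in WT, and that of Lta to Tnf was 3.0 ± 0.835 and 2.90 ± 0.728. The genotype groups therefore overlapped in these ratios as well as in the levels.

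The RANK axis was near the low end of the members. Tnfsf11, the gene of RANKL, was at 0.767, 2.14, 0.977, 1.16 and 1.62 FPKM in DUSP6 KO and at 0.994, 1.19, 1.79, 1.69 and 1.82 FPKM in WT spleens. DUSP6 KO spleen 21 had the highest and DUSP6 KO spleen 26 the lowest level of all 10. With 32 to 93 reads per library, counting alone gives a coefficient of variation of 13.0% to 13.5%, against 41.3% observed in DUSP6 KO and 25.3% in WT, and the log2 difference of -0.21 had an SE of 0.28 (95% interval -0.82 to 0.41, limma BH-adjusted p = 0.99). On a linear scale this interval runs from 0.567 to 1.32 times the WT level. Without DUSP6 KO spleen 26 the difference was -0.05, and without DUSP6 KO spleen 21 it was -0.39.

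Tnfrsf11a, the gene of RANK, had the lowest p of the members. It was at 1.10, 2.59, 1.35, 1.57 and 1.49 FPKM in DUSP6 KO (1.62 ± 0.570, SD, n = 5) and at 1.93, 2.36, 1.85, 1.76 and 2.18 FPKM in WT spleens (2.02 ± 0.249, n = 5). DUSP6 KO spleens 26, 73, 01 and 03 lay below every WT spleen, and DUSP6 KO spleen 21 lay above every one. Its log2 difference was -0.35 (SE 0.20, 95% interval -0.80 to 0.10, limma unadjusted p = 0.12, BH-adjusted p = 0.94). Without DUSP6 KO spleen 21 it was -0.52 with an unadjusted p of 0.0061 (limma BH-adjusted p = 0.45), so the unadjusted call turned on that spleen. Over the 8 stromal list genes with a single row, DUSP6 KO spleen 21 had a mean of 4.10 on the log2 scale, close to the 4.05 of DUSP6 KO spleen 03, where the other 8 spleens had 3.48 to 3.88, and the part of this in the result was not tested. Tnfrsf11b, the gene of the decoy receptor osteoprotegerin, held 1 to 20 reads per library and was not called (log2 difference of -0.58, limma unadjusted p = 0.24).

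In the BAFF axis, the receptor was abundant and the ligand low. Tnfsf13b, the gene of BAFF, was at 1.57, 1.88, 0.884, 1.42 and 2.44 FPKM in DUSP6 KO and at 1.95, 1.72, 2.19, 2.02 and 1.64 FPKM in WT spleens. The WT range lay inside that of DUSP6 KO, where spleen 73 was lowest and spleen 03 highest. The log2 difference was -0.27 (SE 0.23, 95% interval -0.77 to 0.24, limma BH-adjusted p = 0.98). It was -0.08 without DUSP6 KO spleen 73 and -0.42 without DUSP6 KO spleen 03, and the coefficient of variation was 35.04% in DUSP6 KO and 11.7% in WT.

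Tnfrsf13c, the gene of BAFF-R on mature B cells, was at 31.6, 36.7, 26.2, 32.0 and 46.1 FPKM in DUSP6 KO (34.5 ± 7.47, SD, n = 5) and at 44.2, 55.4, 43.8, 25.5 and 49.9 FPKM in WT spleens (43.8 ± 11.3, n = 5). WT spleen 77 was the lowest of all 10, and without DUSP6 KO spleen 03 the other 4 DUSP6 KO spleens lay below the other 4 WT spleens. The log2 difference was -0.32 (SE 0.21, 95% interval -0.79 to 0.14, limma unadjusted p = 0.16, BH-adjusted p = 0.95). Without WT spleen 77 it was -0.50 with an unadjusted p of 0.0085 (limma BH-adjusted p = 0.65), so this unadjusted call turned on WT spleen 77. Per length, BAFF-R RNA was 22.8 ± 6.12 times BAFF RNA (SD over 10 spleens), at 22.1 ± 4.4 in DUSP6 KO and 23.6 ± 7.97 in WT.

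**Figure D2:**
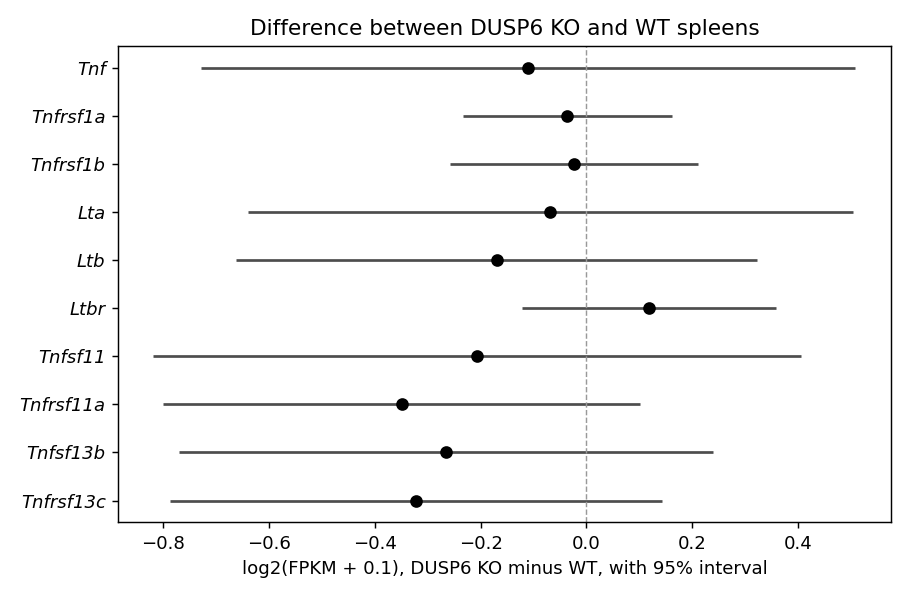
Difference between DUSP6 KO and WT spleens for the 10 members (rows) in log2(FPKM + 0.1), as the limma estimate (point) with its 95% interval (line). Every interval includes 0, the narrowest being that of Tnfrsf1a (-0.23 to 0.16) and the lowest estimate that of Tnfrsf11a (-0.35).

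Ordered by mean FPKM over the 10 spleens, which is per length, the members ran from Ltb (168) through Tnfrsf13c (39.1), Tnfrsf1a (36.8), Tnfrsf1b (34.8), Ltbr (12.4), Lta (8.89), Tnf (3.16), Tnfrsf11a (1.82) and Tnfsf13b (1.77) to Tnfsf11 (1.42). Ltb exceeded Tnfrsf13c in 10 of 10 spleens, and the steps from Tnfrsf1b to Ltbr, to Lta, to Tnf and to Tnfrsf11a also held in 10 of 10. Tnfrsf13c exceeded Tnfrsf1a in 6 of 10, and Tnfrsf1a exceeded Tnfrsf1b in 9 of 10. Tnfrsf11a exceeded Tnfsf13b in 5 of 10 and Tnfsf13b exceeded Tnfsf11 in 7 of 10, so Tnfsf13b had no firm place among the last 3 genes. Tnfsf11 exceeded Tnfrsf11a in 1 of 10. In each of the TNF, RANK and BAFF axes the mean of the ligand was below that of its receptors, and in the lymphotoxin axis Ltb was 13.6 ± 3.49 times Ltbr.

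Part of the members varied together between spleens of a group. DUSP6 KO spleen 73 was the lowest of its group for 6 of 10 members (Tnf, Lta, Ltb, Ltbr, Tnfsf13b and Tnfrsf13c) and WT spleen 77 for 6 of 10 (Tnf, Tnfrsf1b, Lta, Ltb, Tnfrsf11a and Tnfrsf13c). DUSP6 KO spleen 21 and WT spleen 67 were each the highest of their group for 6 of 10. The remaining members had their lows elsewhere. In WT, Tnfrsf1a, Ltbr and Tnfsf13b were lowest in spleen 83 and Tnfsf11 in spleen 65. In DUSP6 KO, Tnfsf11 and Tnfrsf11a were lowest in spleen 26, and Tnfrsf1a and Tnfrsf1b in spleen 01. DUSP6 KO spleen 73 had the largest share of haemoglobin reads (7.56%, where the range was 1.74% to 7.56%) and WT spleen 77 the largest summed level of 10 neutrophil genes (4785 FPKM, against 567 to 2251 FPKM in the other 9). The part of these values in the members' levels was not tested.

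Markers of B cells, the main source of lymphotoxin and of BAFF-R in spleen, were set beside the members. The 9 genes of the B cell list (Ms4a1, Cd79a, Cd79b, Cd22, Pax5, Blk, Ebf1, Fcrla and Spib) were all detected, 9 of 9 were lower in DUSP6 KO by sign, 0 of 9 passed the unadjusted threshold, and their median log2 difference was -0.23. Their summed level was 697 to 1351 FPKM in DUSP6 KO and 791 to 1748 FPKM in WT spleens, lowest in DUSP6 KO spleen 73 and WT spleen 77. The T cell, dendritic cell and natural killer (NK) cell lists were also lowest in these spleens, so this low was not particular to B cells. Members were not set against those lists. In bulk spleen, fewer cells of a type and less RNA per cell cannot be told apart.

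Set against the mean of the B cell list in the same spleen, 4 members had a smaller spread in both groups (Tnf, Lta, Ltb and Tnfrsf13c), 2 in 1 group (Tnfsf11 and Tnfsf13b) and 4 in neither (Tnfrsf1a, Tnfrsf1b, Ltbr and Tnfrsf11a). The SD of log2 Ltb was 0.36 among WT and 0.42 among DUSP6 KO spleens, and that of its difference from the B cell list was 0.040 and 0.14. That difference averaged 1.11 in WT (1.06 to 1.15) and 1.16 in DUSP6 KO spleens (0.99 to 1.35). For Lta the SD was 0.42 in WT and 0.50 in DUSP6 KO before, and 0.095 and 0.19 after. For Tnfrsf13c it was 0.43 and 0.30 before, and 0.11 and 0.20 after, with averages of -0.92 in WT (-1.04 to -0.77) and -1.01 in DUSP6 KO (-1.21 to -0.76). For Tnf the SD went from 0.59 to 0.31 in WT and from 0.35 to 0.24 in DUSP6 KO spleens. Ltbr, which stromal and myeloid cells express, became more spread (SD of 0.13 before and 0.40 after in WT, 0.20 and 0.27 in DUSP6 KO spleens).

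**Figure D3:**
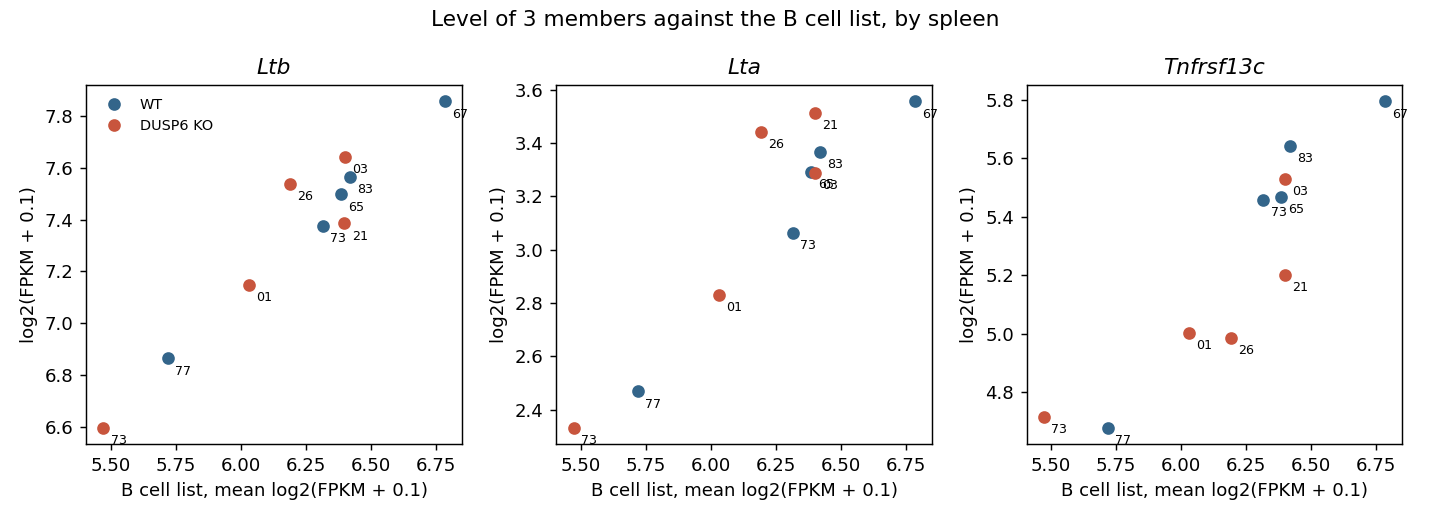
Level of Ltb, Lta and Tnfrsf13c (y axis, log2(FPKM + 0.1)) against the mean of the 9 B cell genes (x axis, mean log2(FPKM + 0.1)), 1 point per spleen with its number, WT in blue and DUSP6 KO in red. Spleens of both genotypes lie along the same diagonal in each panel, with DUSP6 KO 73 and WT 77 at the low end and WT 67 at the high end, and the y axes do not start at 0.

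The genes most like each ligand in pattern were found among 13422 genes averaging 1 FPKM or more, by the root mean square (RMS) difference of centred and scaled log2 values over the 10 libraries, which share depth and scaling. Ltb was nearest to Hip1r (RMS difference 0.13), at 9.60 to 21.4 FPKM, and Cd79a (0.13), a chain of the B cell receptor. Lta was nearest to Rnf169 (0.12) and Sh3kbp1 (0.19). The nearest genes were farther off for Tnf (Stxbp2 at 0.30 and Clk2 at 0.32), Tnfsf11 (Slc39a10 at 0.31 and Slc38a2 at 0.35) and Tnfsf13b (Gm36266 and Parm1, both at 0.39).

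Around the members, 8 lists of pathway genes were examined, with 127 different genes, of which 119 passed the minimum, in 121 rows since Ccl19 and Ccl21a have 2 each. At an unadjusted p under 0.05, 4 were higher and 3 lower in DUSP6 KO (background 2.62% and 3.03%), and 0 of the 121 rows passed the adjusted threshold of the limma test. The 26 adaptors and kinases of the receptors (TRADD, TRAFs, RIP kinases and the like) held 0 called genes, with a median log2 difference of -0.06 and a lowest unadjusted p of 0.12 for Chuk, the kinase IKKα. Nor was any of the 14 genes listed for TNF shedding and mRNA stability called (median 0.05, lowest limma unadjusted p of 0.21 for Zfp36l2, an RNA-binding protein). That list also holds Tnfaip8 and the inhibitor gene Timp3. None of the 11 genes of the BAFF and APRIL pathway and B cell survival was called (median -0.05, lowest limma unadjusted p of 0.065 for Pim2, a survival kinase). Il6, a gene that TNF induces, held at most 11 reads in any library and was not tested.

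**Figure D4:**
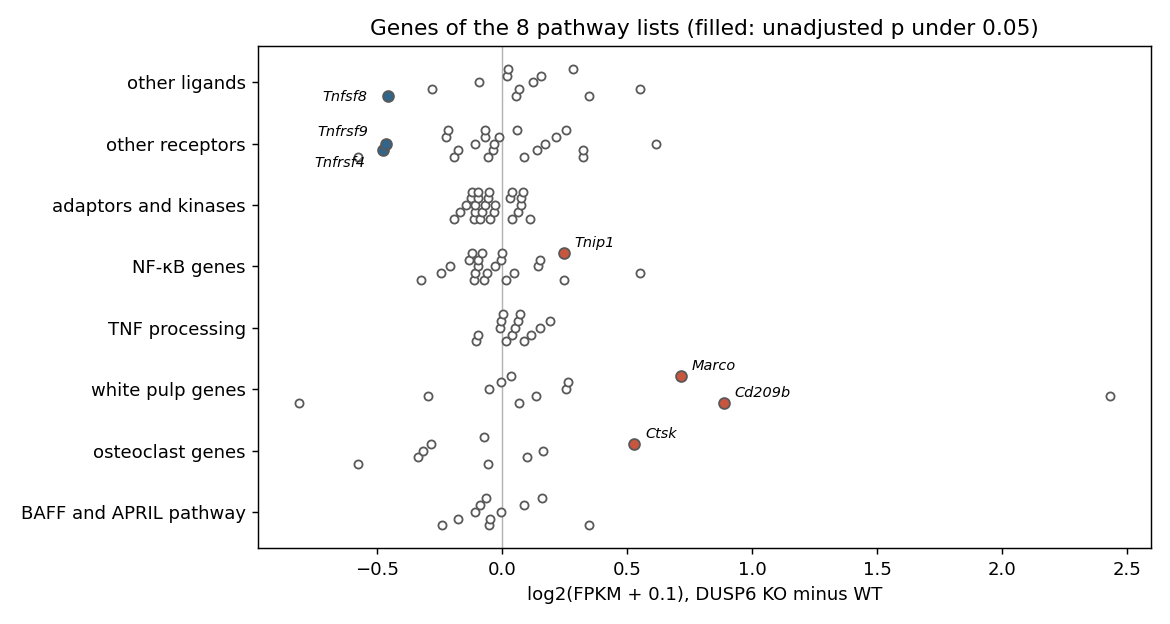
Difference between DUSP6 KO and WT spleens (x axis, log2(FPKM + 0.1)) for the tested genes of the 8 pathway lists (rows), 1 circle per gene, filled where the limma unadjusted p was under 0.05. Filled are 4 genes on the right (Tnip1, Marco, Cd209b, Ctsk) and 3 on the left (Tnfsf8, Tnfrsf4, Tnfrsf9), and the open circle farthest right is the scaffold copy of Ccl19.

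Among the other superfamily members, the 3 called genes were all lower in DUSP6 KO. Of the 12 other ligands tested, 1 was lower, 0 were higher and the median log2 difference was 0.06. Of the 23 other receptors, 2 were lower, 0 were higher and the median was -0.04. Tnfsf8, the ligand of CD30, was at 3.35, 2.59, 2.06, 2.30 and 3.02 FPKM in DUSP6 KO and at 3.32, 3.49, 3.96, 3.66 and 3.83 FPKM in WT spleens, with a single DUSP6 KO spleen above the lowest WT spleen. Tnfsf8 had a log2 difference of -0.46 (SE 0.14, limma unadjusted p = 0.0069, BH-adjusted p = 0.57).

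Tnfrsf4, which encodes OX40, was at 3.85, 4.07, 4.10, 3.75 and 5.48 FPKM in DUSP6 KO and at 6.26, 5.26, 8.16, 4.98 and 5.36 FPKM in WT spleens, where DUSP6 KO spleen 03 alone reached the WT range. Tnfrsf4 had a log2 difference of -0.48 (SE 0.15, limma unadjusted p = 0.010, BH-adjusted p = 0.65). Tnfrsf9, which encodes CD137, was at 2.03, 1.97, 1.83, 1.07 and 2.15 FPKM in DUSP6 KO and at 3.09, 2.16, 2.75, 2.23 and 2.21 FPKM in WT spleens. Its groups did not overlap (background 1.11%), though the highest DUSP6 KO and lowest WT spleens were nearly equal, and the log2 difference was -0.46 (SE 0.19, limma unadjusted p = 0.037, BH-adjusted p = 0.83). Its unadjusted call was lost in 5 of 22 alternatives, with limma p-values of 0.052 to 0.11. The Tnfrsf9 difference was then -0.38 without WT spleen 65, -0.42 without WT spleen 73, -0.42 without both WT spleens 65 and 67, -0.29 without DUSP6 KO spleen 01 and -0.48 without DUSP6 KO spleen 73.

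The T cell list was examined beside these 3 genes. Of its 10 genes, 0 passed the unadjusted threshold, 6 were higher and 4 lower in DUSP6 KO by sign, and their summed level was 133 to 271 FPKM in DUSP6 KO and 153 to 230 FPKM in WT spleens. The ligand of OX40 (Tnfsf4) and that of CD137 (Tnfsf9) had log2 differences of 0.07 and 0.06 at means under 1 FPKM, and neither was called.

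Of 22 tested NF-κB subunits, inhibitors and induced genes, 1 was higher and 0 were lower (background 2.62% and 3.03%), with a median of -0.07. Tnip1, which encodes an inhibitor that binds the deubiquitinase TNFAIP3, was at 27.3, 25.96, 24.5, 26.7 and 30.7 FPKM in DUSP6 KO and at 25.9, 25.2, 21, 19.2 and 22.8 FPKM in WT spleens. DUSP6 KO spleen 73 alone lay below the 2 highest WT spleens, 65 and 67, and the log2 difference was 0.25 (SE 0.097, limma unadjusted p = 0.029, BH-adjusted p = 0.79). Its unadjusted p was above 0.05 under 6 of 22 alternatives, among them leaving out DUSP6 KO spleen 26 (0.052) or 03 (0.073) and WT spleen 73 (0.068) or 77 (0.068).

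The osteoclast list holds RANK-induced genes, the adaptor gene Traf6 and the decoy receptor gene Tnfrsf11b. Among its 9 tested genes, 1 was higher and 0 were lower (background 2.62% and 3.03%), with a median of -0.07. Dcstamp, Calcr and Oscar of this list held at most 6, 3 and 7 reads in any library and were not tested. Ctsk, the collagen-cleaving protease cathepsin K, was at 3.58, 3.50, 4.74, 4.43 and 6.66 FPKM in DUSP6 KO and at 2.55, 2.74, 3.11, 3.66 and 3.36 FPKM in WT spleens, where WT spleen 77 alone entered the DUSP6 KO range. Ctsk had a log2 difference of 0.53 (SE 0.18, limma unadjusted p = 0.014, BH-adjusted p = 0.73), and it was 0.39 with an unadjusted p of 0.092 without WT spleens 65 and 67. Nfatc1, the regulator of osteoclast formation, had a difference of -0.07, and Acp5, the acid phosphatase of osteoclasts and macrophages, one of 0.10. Neither was called. Ctsk is also made by fibroblasts, and of the 12 rows of the stromal list 1 was called, higher in DUSP6 KO (Pdgfrb), while 4 of 12 were lower by sign, among them Dcn (-0.55, limma unadjusted p = 0.085). The summed level of the 8 stromal genes with a single row was 172 to 280 FPKM in DUSP6 KO and 170 to 221 FPKM in WT spleens. The part of this in the Ctsk result was not tested.

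The list of white pulp and marginal zone genes linked to lymphotoxin held the 2 lowest p values of the 8 lists. It was drawn up with earlier results of these data known, and the study itself names Marco and Cd209b for these spleens. That rank is therefore not a result about lymphotoxin. Of the 12 tested rows of this list, 2 were higher and 0 lower (background 2.62% and 3.03%), with a median of 0.10. Marco, a scavenger receptor of marginal zone macrophages, was at 84.8, 130, 145, 96.4 and 142 FPKM in DUSP6 KO (120 ± 27.3, SD, n = 5) and at 64.9, 81.8, 68.3, 62.8 and 80.2 FPKM in WT spleens (71.6 ± 8.85, n = 5). Every DUSP6 KO spleen was above every WT spleen, and the log2 difference was 0.72 (SE 0.16, limma unadjusted p = 0.0011, BH-adjusted p = 0.34).

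Cd209b, the lectin SIGN-R1 of the same macrophages, was at 12.8, 27.7, 16.9, 17.4 and 21.4 FPKM in DUSP6 KO and at 7.02, 10.6, 9.65, 12 and 11.6 FPKM in WT spleens. Its groups did not overlap either, and the log2 difference was 0.89 (SE 0.21, limma unadjusted p = 0.0014, BH-adjusted p = 0.36). Over all 22 alternatives the limma unadjusted p was 0.00018 to 0.0051 for Marco and 0.00040 to 0.0094 for Cd209b. The study tested these spleens with DESeq2 on read counts. It lists Marco and Cd209b among the genes most significantly higher in DUSP6 KO, and both passed its adjusted threshold. Because the spleens are the same, the study's call is no independent support. The follicular genes Cxcl13, Cr2 and Fcer2a of the same list had differences of 0.13, -0.01 and -0.05 and were not called. Cr2 and Fcer2a were also in the list of BAFF pathway and B cell survival genes, so they do not report on lymphotoxin alone. Madcam1 (0.26), an adhesion molecule of the marginal sinus, was not called either. Of the 10 red pulp macrophage genes, 2 were called, both higher in DUSP6 KO (Csf1r and Adgre1, background 2.62%), 3 of 10 were lower by sign, among them Cd5l (-0.50, limma unadjusted p = 0.094), and the median was 0.06. Their summed level was 1291 to 2018 FPKM in DUSP6 KO and 1412 to 1717 FPKM in WT spleens. Other marker lists also moved between the groups at the unadjusted threshold. Of all genes tested, 2.62% were higher and 3.03% lower at this threshold. In DUSP6 KO, 6 of 10 neutrophil genes were lower (median -1.07, summed level 567 to 1941 FPKM against 1135 to 4785 FPKM in WT). Lower too were 2 of 6 megakaryocyte and platelet genes (median -0.36) and 2 of 7 plasma cell genes (median -0.17). Of 7 monocyte genes, 3 were higher and 2 lower (median 0.23). Higher too were 3 of 6 endothelial genes (median 0.24) and 1 of 8 dendritic cell genes (median 0.09). The part of these in the Marco and Cd209b results, and in those of the other pathway genes, was not tested.

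Ccl19 and Ccl21a, chemokine genes of the T cell zone, each had a row on chromosome 4 and a row on a scaffold outside the chromosomes, and reads could be split between these near-identical copies, so their values are uncertain. The scaffold copy of Ccl19 was at 60.9 FPKM in DUSP6 KO spleen 21 and at most 0.184 FPKM in the other 9 spleens. Most of its log2 difference of 2.43 came from DUSP6 KO spleen 21.

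**Figure D5:**
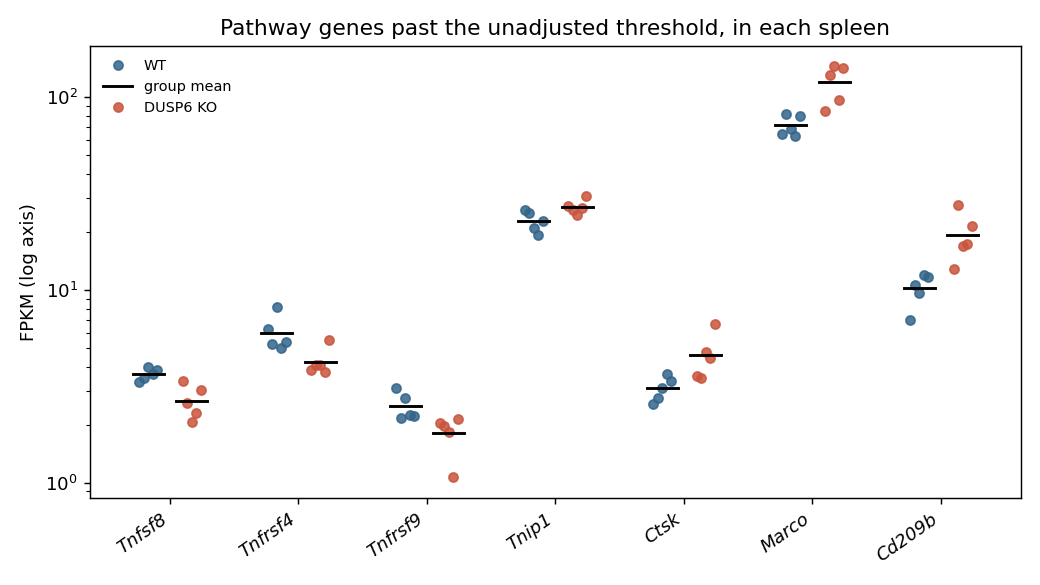
FPKM (log axis) of the 7 pathway genes with a limma unadjusted p under 0.05 in each spleen, with WT in blue, DUSP6 KO in red and group means as bars. The groups separate for Marco, Cd209b and Tnfrsf9, and a single spleen or a few spleens overlap for Tnfsf8, Tnfrsf4, Tnip1 and Ctsk.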

How the data were processed

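RNA from 10 spleens was sequenced by a service provider from poly-A libraries with paired ends. The authors used Hisat2 for alignment and featureCounts for gene counts (the latter at 1.5.0-p3 per the submitters' processing notes) and they deposited FPKM values with a length for each gene. Strand use in counting was not stated, and the notes list hg38 although all gene IDs are of mouse. Coordinates of all 10 members were identical in GENCODE M21 (GRCm38). FPKM multiplied by length was a whole multiple of 1 step in each library (100% of values within 0.001 of a read), which gave reads per library. DESeq2, which the authors ran on their counts, was not run.

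Genes averaging 0.1 FPKM or more were tested on log2(FPKM + 0.1) by limma 3.58.1 (R 4.3.3), using lmFit and a trended eBayes, Benjamini-Hochberg adjustment, a threshold of 0.05 and 5 libraries in each group. The procedure was tried on simulated data: its calls of changed genes all had the right sign, but it missed many of the smaller changes and of those in genes with few reads. The recovery it was first meant to reach was not reached, and the criterion was loosened, so the lack of a call does not show that a level did not differ. P-values set the difference between groups against the spread between mice, which eBayes moderates toward that of genes of similar level. The members and lists were chosen with earlier results of these data known. Named were all members, genes of each pathway list with an unadjusted p under 0.05 (at most 6), the lowest-p gene of a list without one, and genes nearest to each ligand in pattern. 1 marker gene is not reported here. Other list genes, marker genes and Il6 were named after their values were seen. Python 3.11.15 with matplotlib 3.10.9 made the figures. The 22 alternatives were other pseudocounts (1 and 0.01), other filters (a mean of 1 FPKM or none), other limma settings, 3 other scalings, voom on the recovered reads, and leaving out libraries. Leaving out WT 65 and 67 together was chosen after seeing the data.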

Additional observations from a re-analysis of the deposited data

Results flagged for a closer look

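Of 50 groups of 5 values examined, 3 held a library outlying by Dixon's test at the 95% level, where chance gives about 1 in 20. Tnf in WT spleen 67 was at 6.23 FPKM, above the other 4 WT spleens (1.98 to 3.04 FPKM), and leaving it out turned the sign of the Tnf difference. DUSP6 KO spleen 21 had a mean log2 of 4.69 for the megakaryocyte and platelet list, above the other 4 DUSP6 KO spleens, and WT spleen 67 had 18422147 reads, above the other 4 WT libraries.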

How the results depend on the processing

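No paired analysis was possible because the groups share 1 replicate number, 73, and the numbers name mice. Members called at an adjusted p of 0.05 or less by limma numbered 0 under all 22 alternatives. Those called at an unadjusted p under 0.05 ranged from 0 to 1 when each library was left out, and were 0 under every other alternative. With a minimum mean of 1 FPKM, 758 of all genes were called unadjusted (349 higher, 409 lower) against 1205. The count of pathway genes called stayed between 5 and 10 (7 in the report), and genes called at an adjusted p numbered 10 to 34, the highest without DUSP6 KO spleen 21, against 15. Leaving out each library moved the log2 difference from -0.27 to 0.14 for Tnf, from -0.10 to 0.013 for Tnfrsf1a, from -0.10 to 0.036 for Tnfrsf1b and from -0.24 to 0.12 for Lta. Without WT 65 and 67 it was 0.17 for Tnf, 0.039 for Tnfrsf1b and 0.12 for Lta. The causes were not tested. The other 6 members kept their sign under all 22 alternatives, but leaving out each library moved Ltb from -0.31 to -0.0030, Tnfsf13b from -0.42 to -0.08 and Tnfsf11 from -0.39 to -0.05, and Ltb was at -0.0061 without WT 65 and 67. With 5 spleens in a group, the 95% intervals of the members reach 1.09 to 1.76 times lower and 1.07 to 1.42 times higher in DUSP6 KO.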

Other observations

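Among other TNF superfamily receptors not called, Tnfrsf13b (TACI, a second receptor of BAFF) was at 27.2 to 50.1 FPKM in DUSP6 KO and 31.1 to 63.5 FPKM in WT spleens, lowest in DUSP6 KO spleen 73 and WT spleen 77 as BAFF-R was. Tnfrsf17 (BCMA, the receptor of plasma cells) held 19 to 83 reads per library, at 1.70 to 4.21 FPKM in DUSP6 KO and 1.36 to 5.33 FPKM in WT spleens. The ligand APRIL (Tnfsf13) was at 1.25 to 2.03 FPKM in DUSP6 KO and 0.845 to 1.53 FPKM in WT spleens, with a log2 difference of 0.35 (limma unadjusted p = 0.12), against -0.27 for BAFF. The difference between the 2 ligands was not tested.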
